A study of Mus musculus with 26 samples.

Results

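The 6 genes described here encode inward rectifier potassium channels and other membrane proteins with which glia move ions and water: Kcnj10, Kcnj16, Slc4a4, Aqp4, Atp1b2 and Slc12a2. They were chosen by name, with earlier results of these data known, from the 19505 genes measured. All 6 were on the arrays, and each was represented by 1 transcript cluster, the probe set that the array assigns to a gene. Expression was measured on 26 arrays hybridised with biotin-labelled cRNA from 13 mouse cultures of neural stem and progenitor cells. The groups were SOX2 knockout (KO) cultures given dexamethasone (Dex, a synthetic glucocorticoid; n = 7), SOX2 KO cultures given vehicle (n = 7), wild-type (WT) cultures given Dex (n = 6) and WT cultures given vehicle (n = 6). Dex was used at 100 nM for 4 h and the vehicle was ethanol. All cells came from the C57BL/6 telencephalon at postnatal day 0, although the labels also call the tissue fetal and embryonic. Every group was grown with EGF and FGF-1 and was treated after passage 3. Cultures of both sexes were used, but no array is labelled with a sex. The Y-linked gene Eif2s3y averaged 12.15 to 12.575 in WT cultures 1, 2 and 3, and 12.275 and 12.08 in SOX2 KO cultures 8 and 10. It did not exceed 3.81 in any other culture. The cultures of each animal were kept apart, and each of the 13 cultures gave 1 Dex and 1 vehicle array. How the SOX2 knockout was made is not given in the sources used here.

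In astrocytes and their radial glial precursors, potassium released by neurons is taken up through inward rectifier channels, which pass current more easily into the cell than out of it. Kcnj10 encodes the main such channel of glia, and Kcnj16 encodes a partner subunit that joins it in channels sensitive to intracellular pH. Slc4a4 encodes an electrogenic sodium bicarbonate cotransporter of glia. Aqp4 encodes the water channel of astrocyte endfeet, Atp1b2 a glial beta subunit of the sodium potassium pump, and Slc12a2 a cotransporter that brings sodium, potassium and chloride into the cell. SOX2 is a transcription factor that maintains neural stem cells.

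Without SOX2, 2 of the 6 genes passed the test lower in vehicle and in Dex, where 0.559% and 0.564% of all genes passed in either direction. Because the 6 genes were chosen with earlier results of these data known, these shares are a background and not a test of the set. Kcnj16 was 5.75-fold lower and Slc4a4 4.00-fold lower in SOX2 KO than in WT vehicle cultures. The Kcnj10 difference of -1.24 log2 units in vehicle did not pass over all genes, and those of Aqp4, Atp1b2 and Slc12a2 did not either. None of the 6 genes passed the test for Dex in either genotype, where 0.0718% of all genes did in SOX2 KO and 0% in WT cultures. Without WT culture 4, whose Dex label is examined below, the shares were 0.251% and 0.169%, and again none of the 6 passed. A count of 0 among 6 genes is near these shares. In these bulk cultures, fewer cells of a type and less RNA per cell cannot be told apart.

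The targeted gene separated the genotype labels on every array. Sox2 averaged 4.79 ± 0.89 in SOX2 KO Dex cultures and 12.96 ± 0.56 in WT Dex cultures (SD, n = 7 and 6), and 4.65 ± 0.51 in SOX2 KO vehicle cultures and 13.40 ± 0.70 in WT vehicle cultures, all in log2 units. No SOX2 KO array exceeded 6.50 and no WT array was below 12.17. The Dex label held on fewer arrays. Fkbp5, a glucocorticoid-induced cochaperone of the glucocorticoid receptor, was higher on the Dex array in 7 of 7 SOX2 KO cultures, by 1.79 to 2.83, but in 5 of 6 WT cultures. In WT culture 4 the array labelled Dex minus the vehicle array gave -2.03 for Fkbp5 and -2.74 for Per1, a clock gene that glucocorticoids also induce. The tests of the 6 genes are therefore given with and without that culture. The mean of 8 markers of neural stem and progenitor cells was 12.78 in SOX2 KO Dex, 13.12 in SOX2 KO vehicle, 12.80 in WT Dex and 12.98 in WT vehicle cultures. Single markers differed widely in level. In WT vehicle cultures Fabp7 averaged 19.14 and Vim 17.905, but Prom1 averaged 7.505 with a lowest array of 5.80. For genotype 0 of the 8 passed, where 0.559% of all genes did in vehicle and 0.564% in Dex. The means of the microglial, endothelial and pericyte markers lay near the low end of the scale, with a microglial mean of 4.40 in SOX2 KO Dex, 4.31 in SOX2 KO vehicle, 4.37 in WT Dex and 4.27 in WT vehicle cultures. Array medians ran from 6.44 to 6.835 (log2 units), and upper quartiles from 9.38 to 10.43.

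The promoters of Kcnj10, Kcnj16 and Slc4a4 are printed because these 3 of the 6 genes had the largest genotype differences. Each sequence runs 5′ to 3′ over 250 bases before the annotated start and the first 30 bases of the transcript, from RefSeq on GRCm38.p6. Capitals mark the SOX core motif, searched as ACAAAG or ACAATG on both strands. Kcnj10 lies on chromosome 1 (chr1:172341210-172374085), Kcnj16 on chromosome 11 (chr11:110968033-111027968) and Slc4a4 on chromosome 5 (chr5:88793858-89239656). For Kcnj16 the first of 4 listed start sites is shown, and for Slc4a4 the first of 2. The listed Slc4a4 sites lie inside the gene, and no window at its first base, 88793858, was searched.
Kcnj10 (chr1:172340960-172341239, plus strand): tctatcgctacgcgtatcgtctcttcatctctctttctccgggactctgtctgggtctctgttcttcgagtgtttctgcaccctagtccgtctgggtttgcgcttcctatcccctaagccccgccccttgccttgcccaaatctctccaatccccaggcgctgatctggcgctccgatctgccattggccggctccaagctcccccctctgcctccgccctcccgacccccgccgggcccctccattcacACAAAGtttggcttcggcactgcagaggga
Kcnj16 (chr11:110967783-110968062, plus strand): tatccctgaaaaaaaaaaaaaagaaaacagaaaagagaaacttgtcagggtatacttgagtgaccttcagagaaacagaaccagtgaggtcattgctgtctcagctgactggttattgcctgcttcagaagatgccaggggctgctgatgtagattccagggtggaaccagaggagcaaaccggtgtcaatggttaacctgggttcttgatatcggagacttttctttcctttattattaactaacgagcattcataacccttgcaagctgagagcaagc
Slc4a4 (chr5:88887010-88887289, plus strand): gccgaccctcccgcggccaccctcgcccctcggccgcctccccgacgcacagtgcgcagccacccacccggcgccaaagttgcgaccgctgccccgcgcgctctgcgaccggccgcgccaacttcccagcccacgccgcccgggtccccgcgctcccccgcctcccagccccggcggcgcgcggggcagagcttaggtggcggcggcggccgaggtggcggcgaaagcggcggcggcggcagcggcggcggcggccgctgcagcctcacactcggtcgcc
The Kcnj10 window held 1 SOX core, ACAAAG, whose first base is base 1 of the annotated transcript. The 4 Kcnj16 and 2 Slc4a4 windows held 0. Of the 32851 promoter windows of 300 bases in the RefSeq table, 28.6% held at least 1 such motif. The glucocorticoid response element, searched as GNACA and TGTNC with 3 bases between them on both strands, was in 0 of these 7 windows and in 0.475% of all windows. These letters are matches only and say nothing of binding. The base composition differed between the windows, with 63.7% G and C over the 300 bases of the Kcnj10 window, 44.3% over the first of Kcnj16 and 80.0% over the first of Slc4a4.

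**Figure D1:**
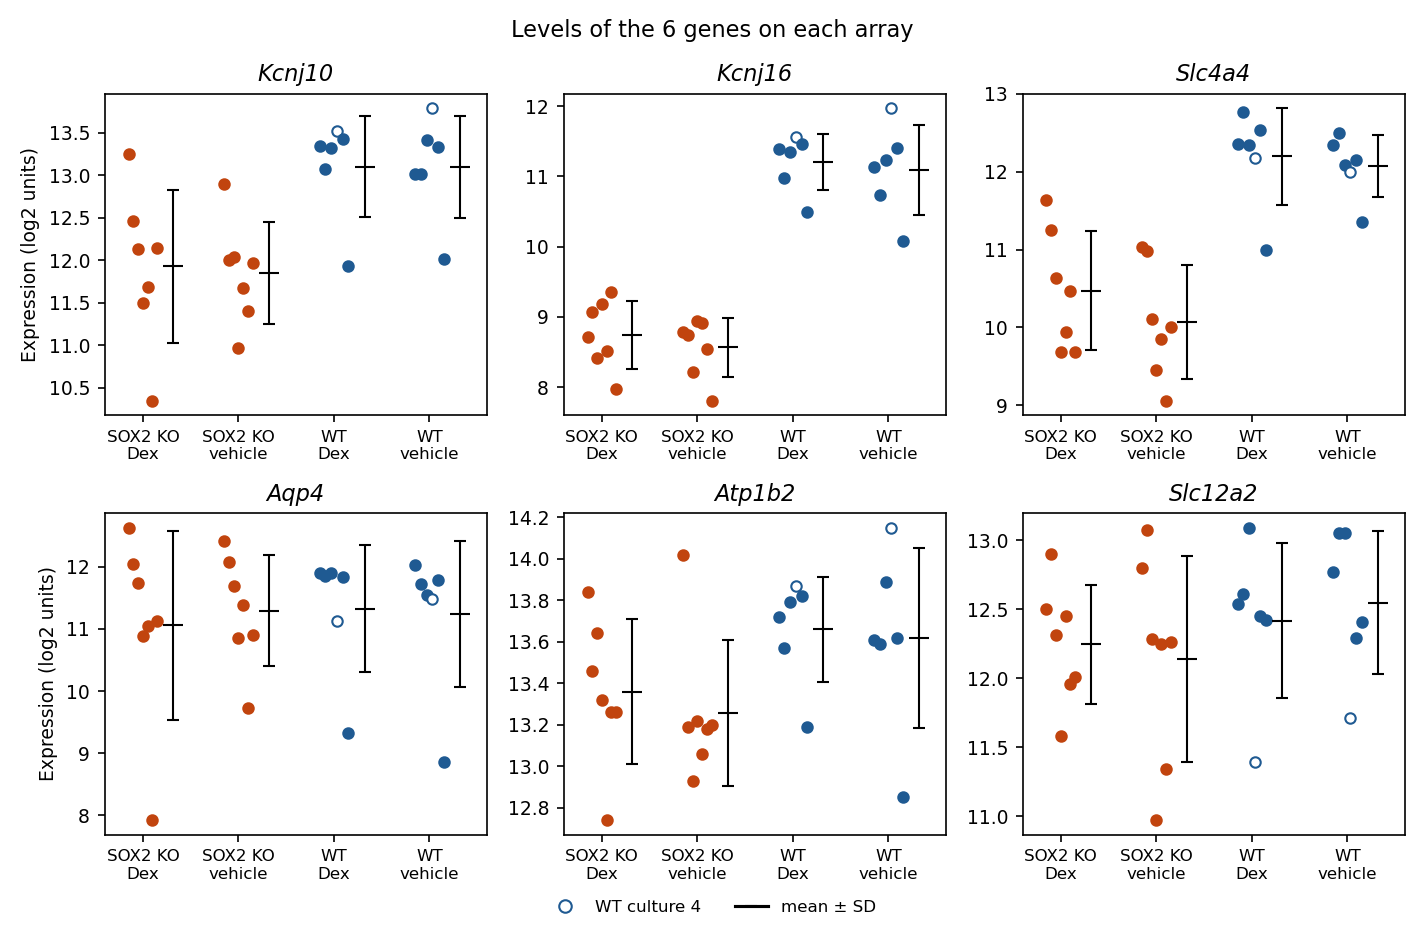
Expression level (log2 units) of the 6 genes on each of the 26 arrays, 1 panel per gene, with SOX2 KO Dex, SOX2 KO vehicle, WT Dex and WT vehicle from left to right; points are arrays, open points are WT culture 4, and lines are the mean ± SD. All 14 SOX2 KO arrays lie below all 12 WT arrays for Kcnj16, as for 0.0769% of all genes, with 9.35 as the highest SOX2 KO level and 10.08 as the lowest WT level. Over both treatments the genotypes overlap for Kcnj10, Slc4a4, Aqp4, Atp1b2 and Slc12a2.

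Genotype differences were tested with limma in vehicle, in Dex and over the means of each culture's 2 arrays, with Benjamini-Hochberg adjustment over all 19505 genes. The vehicle and Dex tests took 1 spread from all 26 arrays without a culture block, so both arrays of a culture counted as separate in it. These 2 tests used the same cultures and are not independent. The test over culture means used 1 value per culture. In vehicle, 2 of the 6 genes passed an adjusted p of 0.05, both lower, where 0.559% of all genes passed and 0.369% passed lower. In Dex, Kcnj16 and Slc4a4 again passed, 2 of 6, where 0.564% of all genes passed and 0.379% passed lower. Over culture means 2 of 6 passed, where 0.733% of all genes passed and 0.502% passed lower. Without culture 4, 2 of 6 passed in each comparison, where 0.523% of all genes passed in vehicle, 0.554% in Dex and 0.59% over culture means.

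Kcnj16, the pH-sensitive partner subunit, had the largest difference of the 6 genes. In SOX2 KO vehicle cultures it ranged from 7.81 to 8.95 with a median of 8.75, against 10.08 to 11.97 with a median of 11.18 in WT vehicle cultures. In SOX2 KO Dex cultures it ranged from 7.98 to 9.35 with a median of 8.72, against 10.50 to 11.56 with a median of 11.365 in WT Dex cultures (all log2 levels). Every SOX2 KO array lay below every WT array, whichever treatment it had. Without overlap and with SOX2 KO lower were 0.359% of all genes in vehicle, 0.292% in Dex, 0.364% over culture means and 0.0769%, or 15 genes, over all arrays of both treatments. The log2 difference was -2.52 ± 0.27 in vehicle (SE, adjusted p = 8.15e-07, limma), -2.46 ± 0.27 in Dex (adjusted p = 1.46e-06) and -2.49 ± 0.24 over culture means (adjusted p = 3.56e-05). Without culture 4 it was -2.35 in vehicle (adjusted p = 5.93e-06), -2.39 in Dex (adjusted p = 5.22e-06) and -2.37 over culture means (adjusted p = 9.39e-05). The lowest Kcnj16 level, 7.81, lay above the array medians, which reached 6.835.

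Slc4a4, the sodium bicarbonate cotransporter, was also lower in both treatments. In SOX2 KO vehicle cultures it ranged from 9.06 to 11.03 with a median of 10.00, against 11.35 to 12.50 with a median of 12.12 in WT vehicle cultures. In SOX2 KO Dex cultures it ranged from 9.68 to 11.63 with a median of 10.47, against 11.00 to 12.77 with a median of 12.345 in WT Dex cultures. The vehicle groups did not overlap, as was so with SOX2 KO lower for 0.359% of all genes. The Dex groups overlapped because SOX2 KO cultures 7 and 8, at 11.63 and 11.25, were above WT culture 6, at 11.00. The log2 difference was -2.00 ± 0.34 in vehicle (SE, adjusted p = 0.00154, limma), -1.72 ± 0.34 in Dex (adjusted p = 0.00709) and -1.86 ± 0.30 over culture means (adjusted p = 0.00506). Without culture 4 it was -2.02 in vehicle (adjusted p = 0.00483), -1.73 in Dex (adjusted p = 0.0179) and -1.87 over culture means (adjusted p = 0.0108).

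Kcnj10, the main glial inward rectifier, did not pass in any of the 3 comparisons. In SOX2 KO vehicle cultures it ranged from 10.97 to 12.90 with a median of 11.97, against 12.02 to 13.79 with a median of 13.17 in WT vehicle cultures. In SOX2 KO Dex cultures it ranged from 10.35 to 13.25 with a median of 12.13, against 11.93 to 13.52 with a median of 13.335 in WT Dex cultures. The groups overlapped. In Dex, SOX2 KO cultures 7, 8, 9 and 13, at 13.25, 12.46, 12.13 and 12.15, lay above WT culture 6, at 11.93, and culture 7 also lay above WT culture 2, at 13.07. In vehicle, SOX2 KO cultures 7 and 9, at 12.90 and 12.04, lay above WT culture 6, at 12.02. The log2 difference of -1.24 ± 0.35 in vehicle (SE, adjusted p = 0.139, limma) did not pass over all genes, nor did -1.17 ± 0.35 in Dex (adjusted p = 0.180) or -1.21 ± 0.32 over culture means (adjusted p = 0.119). The 95% interval of the vehicle difference was -1.97 to -0.52. Without culture 4 the difference was -1.10 in vehicle (adjusted p = 0.319), -1.09 in Dex (adjusted p = 0.321) and -1.10 over culture means (adjusted p = 0.221). Kcnj10 passed in all 3 comparisons when culture 6 was left out, at -1.46 in vehicle (adjusted p = 0.0295), -1.41 in Dex (adjusted p = 0.0354) and -1.43 over culture means (adjusted p = 0.0248). It also passed without culture 7, at -1.42 in vehicle (adjusted p = 0.0322), -1.39 in Dex (adjusted p = 0.0410) and -1.40 over culture means (adjusted p = 0.0287), and with arrays weighted by quality, at adjusted p = 0.00884 in vehicle, 0.0276 in Dex and 0.00283 over culture means.

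Aqp4, the water channel, had the widest spread of the 6 genes and no settled direction. In SOX2 KO vehicle cultures it ranged from 9.73 to 12.41 with a median of 11.39, against 8.86 to 12.03 with a median of 11.64 in WT vehicle cultures. In SOX2 KO Dex cultures it ranged from 7.92 to 12.63 with a median of 11.13, against 9.33 to 11.90 with a median of 11.845 in WT Dex cultures. SOX2 KO culture 12 and WT culture 6 were the lowest of their groups in both treatments. The log2 difference was 0.05 in vehicle (95% interval -1.13 to 1.24), -0.27 in Dex (-1.45 to 0.92) and -0.11 over culture means (-1.21 to 1.00), so differences of about 1 log2 unit in either direction were within the intervals. Without culture 4 it was 0.10 in vehicle, -0.31 in Dex and -0.10 over culture means.

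Atp1b2, the pump subunit, varied little, with an SD of 0.25 to 0.44 within groups. It ranged from 12.93 to 14.02 in SOX2 KO vehicle cultures, against 12.85 to 14.15 in WT vehicle cultures, and from 12.74 to 13.84 in SOX2 KO Dex cultures, against 13.19 to 13.87 in WT Dex cultures. The groups overlapped in both treatments, and the log2 difference was -0.33 over culture means (95% interval -0.73 to 0.07), -0.36 in vehicle and -0.30 in Dex, and -0.26 over culture means without culture 4. Slc12a2, the sodium potassium chloride cotransporter, ranged from 10.97 to 13.07 in SOX2 KO vehicle cultures, against 11.71 to 13.05 in WT vehicle cultures. It ranged from 11.58 to 12.90 in SOX2 KO Dex cultures, against 11.39 to 13.09 in WT Dex cultures. Its log2 difference was -0.29 over culture means (95% interval -0.87 to 0.29), -0.41 in vehicle and -0.17 in Dex. Leaving out culture 4 gave -0.48 over culture means (95% interval -1.02 to 0.07), -0.58 in vehicle and -0.38 in Dex. The intervals of both genes over culture means exclude a decrease as large as that of Kcnj16 or Slc4a4.

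**Figure D2:**
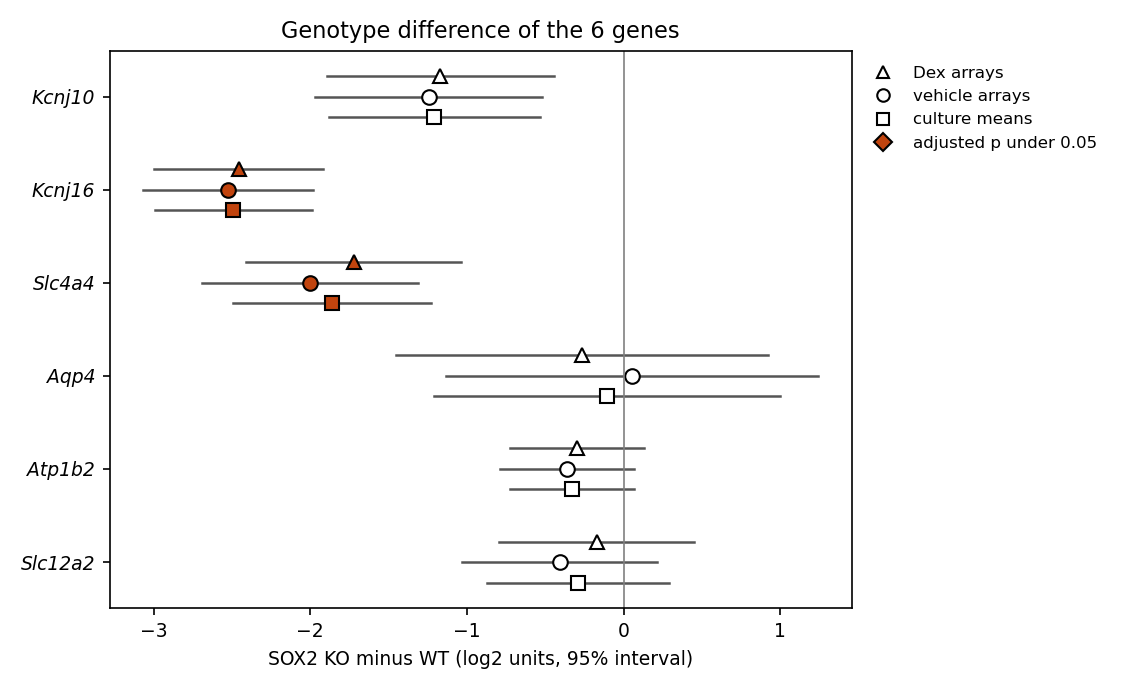
Log2 difference, SOX2 KO minus WT, of the 6 genes in Dex (triangles), in vehicle (circles) and over culture means (squares), with 95% intervals as lines; filled symbols passed an adjusted p of 0.05. Kcnj16 and Slc4a4 are filled in all 3 comparisons, at -2.52 and -2.00 in vehicle, and the Kcnj10 intervals lie below 0 without passing over all genes.

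Whether the genes differed from one another in their genotype difference was tested for all 15 pairs. For each culture the level of one gene was subtracted from that of the other, and SOX2 KO was compared with WT by enumerating the 1716 ways to divide the cultures (exact permutation, both sides); p-values were adjusted over the 15 pairs. This test was chosen after the values had been seen. Of the 15 pairs, 11 passed. Kcnj16, Slc4a4 and Kcnj10 each differed from Aqp4, Atp1b2 and Slc12a2 in all 9 such pairs, with a highest adjusted p of 0.0310 by the exact test. The genotype difference of Kcnj16 was larger than that of Kcnj10: Kcnj16 minus Kcnj10 averaged -3.24 ± 0.94 in SOX2 KO cultures and -1.95 ± 0.17 in WT cultures (SD, n = 7 and 6), a difference between genotypes of -1.28 (exact permutation p = 0.00932, adjusted p = 0.0175). Without culture 4 it was -1.27 (exact permutation p = 0.0240). The levels of 2 probe sets cannot be set against each other, so only the change of each gap between genotypes is measured. Slc4a4 minus Kcnj10 differed by -0.66 (exact permutation p = 0.0146, adjusted p = 0.0219). The Kcnj16 and Slc4a4 differences were not told apart, at -0.63 between them (exact permutation p = 0.116, adjusted p = 0.145). Kcnj10 minus Slc12a2, at -0.92, was the least stable of the 9 pairs. It passed in 10 of 16 alternatives, and not without culture 4 (-0.62, adjusted p = 0.0740, exact permutation), culture 5 (-0.84), culture 8 (-0.84), culture 11 (-0.86) or culture 12 (-0.84), nor without cultures 4 and 12 together (-0.54, adjusted p = 0.133, exact permutation).

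The cultures were divided into 3 clusters, a set number, by their overall profiles after the mean of each genotype and treatment group was removed. Each cluster held cultures of both genotypes. Since the genotype means were removed first, this mixing is no result about SOX2. Cluster 1 held SOX2 KO cultures 7 and 8 and WT cultures 1, 2 and 3, cluster 2 held SOX2 KO cultures 10 and 12 and WT culture 4, and cluster 3 held SOX2 KO cultures 9, 11 and 13 and WT cultures 5 and 6. Within clusters 1, 2 and 3 the Kcnj16 culture means of SOX2 KO minus WT differed by -2.30, -2.76 and -2.55. Those of Slc4a4 differed by -1.18, -2.41 and -1.72. Those of Kcnj10 differed by -0.54, -2.60 and -0.73, with the largest difference in cluster 2, whose only WT culture was culture 4. Aqp4 changed sign between clusters, at 0.46, -1.45 and 0.86, while Atp1b2 differed by -0.07, -0.77 and -0.23 and Slc12a2 by -0.03, -0.09 and -0.13. With 1 to 3 cultures of a genotype in each cluster these values were not tested.

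**Figure D3:**
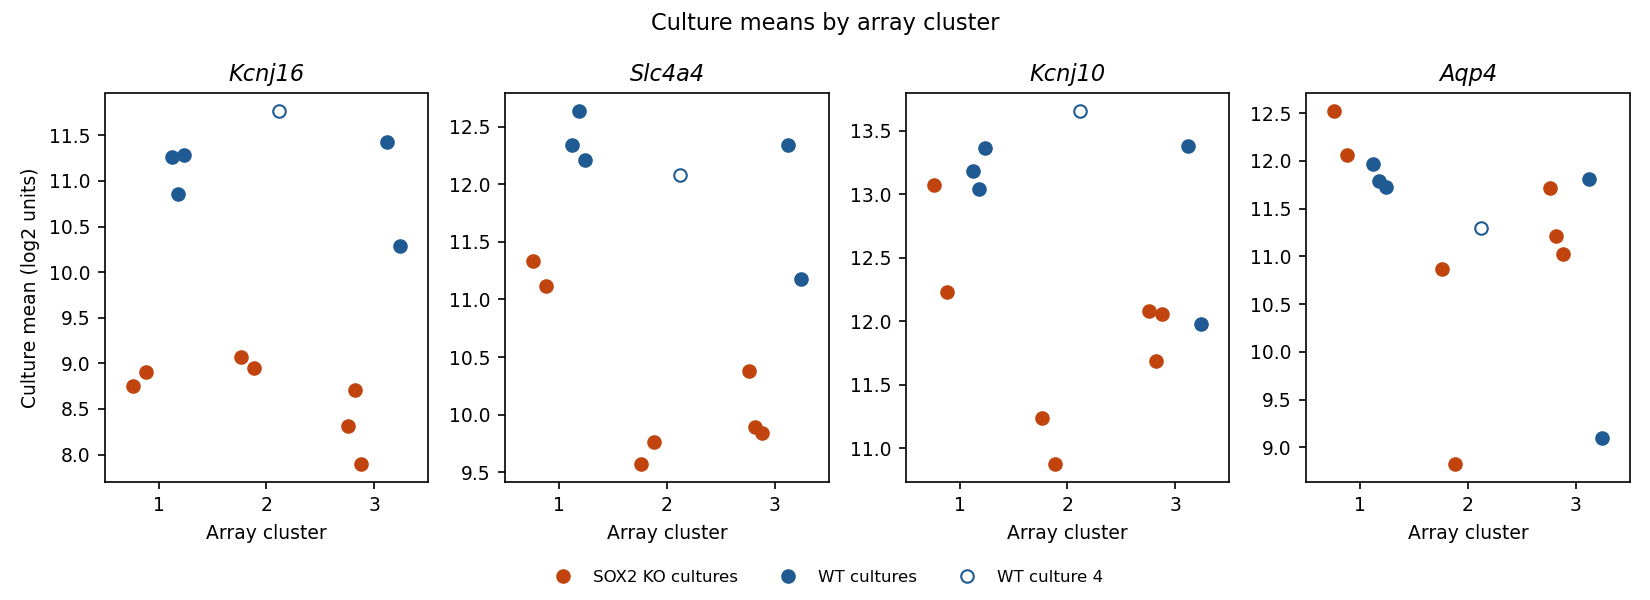
Mean level of each culture (log2 units) of Kcnj16, Slc4a4, Kcnj10 and Aqp4 by array cluster, with SOX2 KO cultures to the left of WT cultures within each cluster and WT culture 4 as an open point. SOX2 KO cultures lie below WT cultures in each cluster for Kcnj16, with differences of -2.30, -2.76 and -2.55, whereas for Aqp4 they lie above WT cultures in cluster 1, below WT culture 4 in cluster 2 and on both sides in cluster 3.

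Glial markers were set beside these differences. Of 6 astrocyte markers, 1 passed lower in SOX2 KO in each genotype comparison, where 0.369% of all genes did in vehicle, 0.379% in Dex and 0.502% over culture means. It was Slc1a2, the main glutamate transporter of astrocytes, at -2.03 ± 0.35 in vehicle (SE, adjusted p = 0.00204, limma), -2.08 in Dex (adjusted p = 0.00153) and -2.06 over culture means (adjusted p = 0.0039). Without culture 4 it was -1.91 in vehicle, -2.06 in Dex and -1.98 over culture means, with adjusted p = 0.00979, 0.00462 and 0.0103. The median log2 difference of the 6 astrocyte markers was -0.05 in vehicle, -0.18 in Dex and -0.09 over culture means, against -0.03, -0.06 and -0.04 over all genes, and Slc1a2 was the lowest of them in each. The mean over the 6 astrocyte markers was 10.82 in SOX2 KO Dex cultures (range 10.1 to 11.34) against 11.23 in WT Dex cultures (9.788 to 11.85), and 10.82 in SOX2 KO vehicle cultures (10.27 to 11.45) against 11.13 in WT vehicle cultures (10.04 to 11.59). Oligodendrocyte markers varied widely between cultures. Of the 4 measured, 0 passed over culture means, where 0.733% of all genes did, and their log2 differences ran from -1.215 to 1.098. Their mean ran from 6.792 to 9.472 in SOX2 KO vehicle and from 6.225 to 9.343 in WT vehicle cultures. In Dex it ran from 6.93 to 8.87 in SOX2 KO and from 6.778 to 9.672 in WT cultures. Of 6 neuron markers 4 had a lower mean in SOX2 KO, as did 10762 of 19505 genes in vehicle and 11443 in Dex. Of these 4, Syt1, a synaptic vesicle protein, passed, at -1.59 in vehicle (adjusted p = 0.0149, limma) and -1.42 in Dex (adjusted p = 0.0399). Its SOX2 KO means, 5.89 in vehicle and 5.68 in Dex, lay below the lowest array median, 6.44. The vehicle groups overlapped, with SOX2 KO up to 7.14 and WT down to 7.00. The 2 neuron markers with a higher mean in SOX2 KO were Tubb3 and Snap25, which did not pass. In vehicle Tubb3 averaged 9.55 against 9.03 in WT, and Snap25 10.40 against 9.95. Without culture 4 Syt1 passed in vehicle (adjusted p = 0.0202) and not in Dex (adjusted p = 0.0673). Syt1 passed in 10 of 22 alternatives in Dex. The part of these markers in the genotype differences was not tested. WT culture 6, the lowest WT culture for Kcnj10, Kcnj16, Slc4a4, Aqp4 and Atp1b2, also stood apart in Gfap and Ttr. Its Gfap level, an astrocyte filament gene, was 5.13 in Dex and 5.48 in vehicle, against 6.96 to 11.36 on the other 24 arrays. Its level of Ttr, a choroid plexus gene, was 12.99 in Dex and 11.79 in vehicle, against 4.15 to 7.79 on the other 24 arrays. The further choroid plexus markers Folr1, Kcnj13 and Clic6 did not exceed 6.41, 6.06 and 6.17 on any WT vehicle array. On WT Dex arrays they reached 7.90, 6.28 and 6.53. The Folr1 level of 7.90 was that of culture 6, against a median of 6.17 in WT Dex cultures. Of the further astrocyte markers, Aldh1l1, Gja1 and Slc1a2 in culture 6 lay below the other WT arrays. Slc1a3 lay within their range, and S100b lay below them only in Dex.

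Around the 6 genes, 83 further genes of ion and water transport were listed, of which 75 were measured and the rest were not analysed here. Over culture means 1 of the 75 passed lower in SOX2 KO, where 0.502% of all genes did, 0 passed higher and 74 did not pass. By sign 49 of the 75 were lower and 26 higher, where 11271 of all 19505 genes were lower and 8234 higher. The median log2 difference of the 75 was -0.10, against -0.04 over all genes. The one that passed was Kcnk1, a potassium leak channel of astrocytes, at -1.25 ± 0.25 (SE, adjusted p = 0.0219, limma). In SOX2 KO vehicle cultures Kcnk1 ranged from 7.16 to 8.10, against 8.20 to 9.66 in WT vehicle cultures, without overlap. The same held with SOX2 KO lower for 0.359% of all genes. The Dex groups overlapped, with SOX2 KO up to 8.77 and WT down to 7.85. In vehicle the log2 difference of Kcnk1 was -1.45 ± 0.29 (SE, adjusted p = 0.00892, limma). In Dex the Kcnk1 difference of -1.04 did not pass (adjusted p = 0.124, limma). Without culture 4 the difference over culture means did not either (-1.18, adjusted p = 0.0526). Over culture means Kcnk1 passed in 14 of 21 alternatives.

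In lists this short, a count of 0 is near the 0.733% of all genes that passed in either direction over culture means. Of the 13 other inward rectifier genes 0 passed, with group means from 3.18 to 6.79 (log2 levels), log2 differences over culture means from -0.45 to 0.35 and a median difference of 0.10. None of the 11 further bicarbonate transport and pH genes passed (median -0.16), among them Car2, a carbonic anhydrase, at -0.57 (adjusted p = 0.564). None of the 10 other aquaporins (median -0.09) or the 9 endfoot anchoring genes (median -0.29) passed, with Dtna, a dystrophin-associated protein, the highest of the endfoot genes at 0.67 (adjusted p = 0.297). The 7 further sodium potassium pump genes had a median of -0.19, the 13 further cation chloride cotransport genes one of -0.07 and the 8 chloride and volume genes one of -0.12, with 0 past the threshold in each list.

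**Figure D4:**
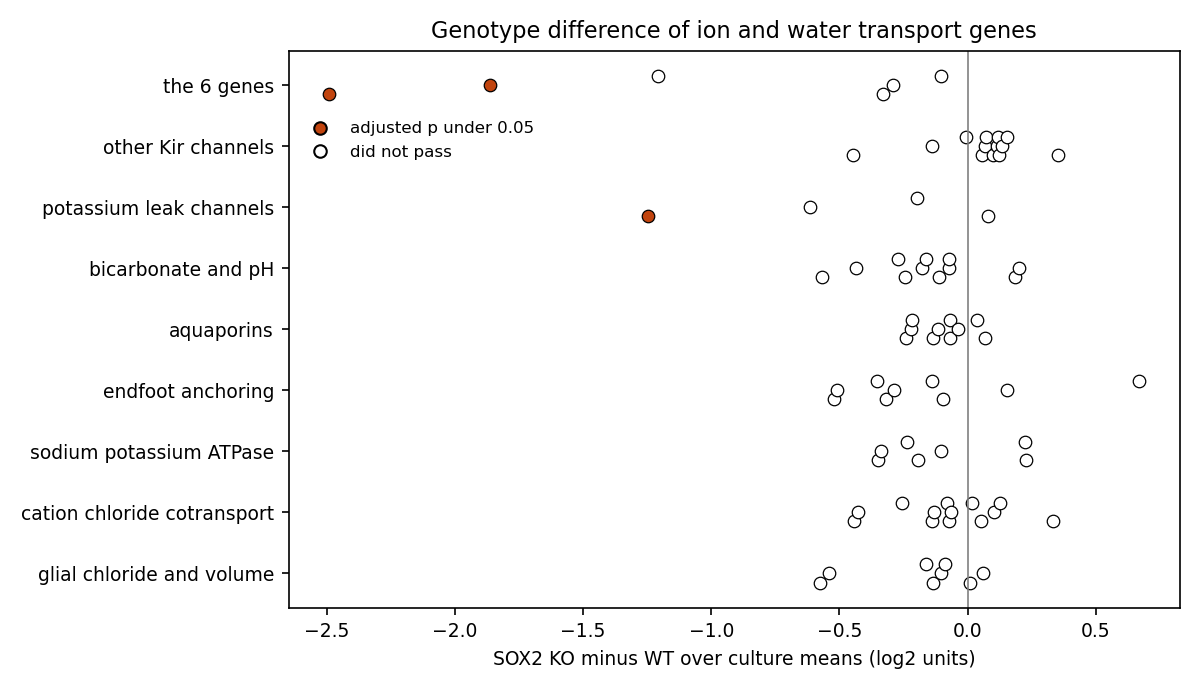
Log2 difference, SOX2 KO minus WT over culture means, of the 6 genes and of the 75 further ion and water transport genes by list; each point is a gene, and filled points passed an adjusted p of 0.05. Kcnj16 at -2.49, Slc4a4 at -1.86 and the leak channel Kcnk1 at -1.25 are filled, and in the further lists other than the leak channels the points lie between -0.58 and 0.67.

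Dex was compared with vehicle within cultures, with the culture as a block. None of the 6 genes passed in SOX2 KO cultures, where 0.0718% of all genes did (0.251% without culture 4). In WT cultures 0 of 19505 genes passed (0% of all genes; 755 at an unadjusted p under 0.05, limma), and without culture 4, 0.169% of all genes passed and none of the 6 did. Slc4a4 had the largest Dex difference in SOX2 KO cultures, at 0.40 ± 0.16 log2 units (SE, 95% interval 0.06 to 0.75, adjusted p = 0.436, limma), and it was higher on the Dex array in 6 of 7 cultures. Its per-culture differences ran from -0.32 to 1.41, the highest in culture 12. In WT cultures its difference was 0.13 ± 0.18, from -0.35 to 0.39, and without culture 4 it was 0.11.

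Kcnj16 differed by 0.18 ± 0.14 in SOX2 KO cultures, higher in 5 of 7, and by 0.12 ± 0.15 in WT cultures (SE, limma). In WT cultures without culture 4 it was higher on the Dex array in 5 of 5, by 0.06 to 0.42 with a mean of 0.22, which did not pass over all genes (adjusted p = 0.998, limma). Kcnj10 differed by 0.08 ± 0.16 in SOX2 KO and 0.01 ± 0.17 in WT cultures. It was higher on the Dex array in 6 of 7 SOX2 KO cultures and lower by 1.05 in culture 12. Aqp4 differed by -0.24 ± 0.20 in SOX2 KO cultures, from -1.81 in culture 12 to 0.22, and by 0.09 ± 0.21 in WT cultures. Atp1b2 differed by 0.10 ± 0.13 in SOX2 KO and 0.04 ± 0.14 in WT cultures, and Slc12a2 by 0.11 ± 0.14 in SOX2 KO and -0.13 ± 0.15 in WT cultures. Without culture 4 the WT difference was 0.06 for Kcnj10, 0.17 for Aqp4, 0.11 for Atp1b2 and -0.09 for Slc12a2. The Dex array of culture 12 had the lowest upper quartile of all 26 arrays, 9.38; its part in these values was not tested.

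The difference between the genotypes in their Dex effect was tested directly. For none of the 6 genes did it pass (adjusted p = 0.999 for each, limma), and of all genes 0% did, with 688 of 19505 at an unadjusted p under 0.05. The Dex effect in SOX2 KO minus that in WT was 0.28 for Slc4a4 (95% interval -0.23 to 0.78), 0.07 for Kcnj10 (-0.42 to 0.56), 0.07 for Kcnj16 (-0.37 to 0.50), -0.32 for Aqp4 (-0.93 to 0.29), 0.06 for Atp1b2 (-0.34 to 0.46) and 0.24 for Slc12a2 (-0.19 to 0.66). With culture 4 left out it was 0.29 for Slc4a4, 0.02 for Kcnj10, -0.04 for Kcnj16, -0.41 for Aqp4, -0.0031 for Atp1b2 and 0.20 for Slc12a2, and again none passed. Of the 75 further transport genes 0 passed for Dex in either genotype, where 0.0718% of all genes did in SOX2 KO and 0% in WT cultures. These counts include culture 4, and without it the shares of all genes were 0.251% and 0.169%.

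**Figure D5:**
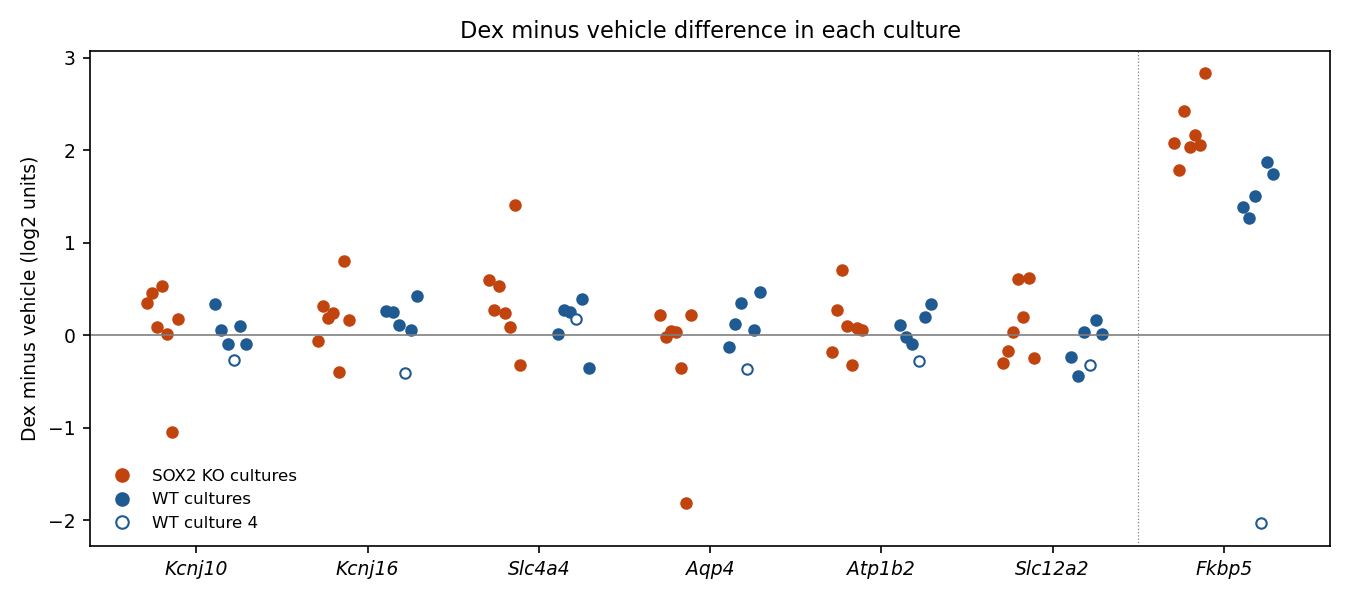
Difference between the Dex and the vehicle array of each culture (log2 units) for the 6 genes, with Fkbp5 at the right as the check of the Dex label; points are cultures, SOX2 KO to the left of WT, and the open point is WT culture 4. The 6 genes lie on both sides of 0, whereas Fkbp5 lies between 1.79 and 2.83 in all 7 SOX2 KO cultures and at -2.03 in WT culture 4.

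The genes whose levels followed each of the 6 most closely were ranked among 18486 genes by Pearson r over the 13 culture means, as a description of these cultures. The points share the genotype groups and the array clusters, so r is also given after the genotype means were removed. For Kcnj10 the nearest were Slc24a4 (r = 0.94, then 0.881), Tril (0.939, then 0.877) and Paqr8 (0.939, then 0.908). For Kcnj16 they were Kcna2 (0.951, then 0.562), Fndc3c1 (0.949, then 0.294) and Mcc (0.944, then 0.791). For Slc4a4 they were Pigs (0.961, then 0.868), Rtn1 (0.959, then 0.838) and Reep2 (0.958, then 0.866). For Aqp4 they were Hsd17b11 (0.934, then 0.938), Neo1 (0.932, then 0.961) and Osbpl2 (0.928 both times). For Atp1b2 they were Myl9 (0.915, then 0.887), Fam107a (0.903, then 0.871) and Slain1 (0.899, then 0.900). For Slc12a2 they were Haus6 (0.979, then 0.984), Xpo5 (0.979, then 0.977) and Pomt1 (0.974, then 0.973).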

How the data were processed

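The deposited values of the 26 arrays were taken as log2 expression from their range, 2.22 to 19.81, since the log base, the normalization and the array software are not given in the sources used here. Of 22206 transcript clusters, 19572 carried 1 gene symbol and 2634 none; all named ones were matched to RefSeq by Entrez identifier. For 55 genes with several transcript clusters, the one of highest mean was kept. Genotype was tested in limma 3.58.1 (R 4.3.3) with 1 mean per group and over culture means, and Dex with the culture as a fixed block, at a Benjamini-Hochberg adjusted p of 0.05 without a fold minimum. For arrays, their number limits the precision. The culture numbers in the labels pair the arrays: same-number arrays deviated together in every culture (r from 0.3116 to 0.7309). Of the 26 arrays, 22 had their own number as best match. In SOX2 KO cultures 9, 11, 12 and 13, 1 array each matched another culture better. The scripts were tested on simulated data. Named genes were the 6 genes, Sox2, Fkbp5 and Per1, every listed transport or marker gene past the threshold (up to 8 per list), and the 3 genes of highest r to each of the 6. Car2, Dtna, Gfap, Ttr, Fabp7, Vim, Prom1, Tubb3 and Snap25 were named after their values were seen. The 6 genes and all lists were chosen with earlier results of these data known. Alternatives covered normalization, filtering, weighting, blocking, array cluster, an Eif2s3y covariate and each culture left out. Figures were drawn with matplotlib 3.10.9.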

Additional observations from a re-analysis of the deposited data

Results flagged for a closer look

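Levels or Dex differences of the 6 genes were examined in 36 groups for a culture far from the others of its group (Dixon's ratio of the gap to the range, at 95%), and 8 such values were found; chance gives about 1 in 20 groups, and the groups share cultures. WT culture 6 was far below the other WT cultures for Kcnj10 on its Dex array (11.93, next 13.07), for Slc4a4 on its Dex array (11.00, next 12.17), and for Aqp4 on both its Dex array (9.33, next 11.12) and its vehicle array (8.86, next 11.48). This is the culture with low Gfap and high Ttr. SOX2 KO culture 12 was far below the other SOX2 KO cultures for Aqp4 on its Dex array (7.92, next 10.89). Its Dex minus vehicle difference was far below the others for Aqp4 (-1.81, next -0.35) and for Kcnj10 (-1.05, next 0.01). SOX2 KO culture 7 was far above the other SOX2 KO vehicle cultures for Atp1b2 (14.02, next 13.22).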

How the results depend on the processing

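Kcnj16 and Slc4a4 passed lower in SOX2 KO under every alternative run (23 in vehicle, 23 in Dex, 21 over culture means); Kcnj16 ranged from -2.72 to -2.34 in vehicle and Slc4a4 from -2.16 to -1.80. The number of all genes past the threshold moved more; the cause was not tested. In vehicle, Dex and over culture means it was 168, 171 and 217 with quantile normalization, 378, 561 and 1158 with array weights (295, 444 and 961 of them lower), and 376, 397 and 550 with array cluster as a covariate, which turned the split to 188 lower and 188 higher in vehicle. With only the 2 groups compared it was 72 for genotype in Dex and 31 for Dex in SOX2 KO. For Dex in SOX2 KO it was 24 with the low-value filter, and for Dex in WT it was 1 with array weights. Without cultures 4 and 12, an alternative chosen after seeing the data, it was 66 for Dex in SOX2 KO and 58 in WT. Leaving out each culture gave 69 to 160 genes for genotype in Dex, 85 to 182 over culture means, 3 to 49 for Dex in SOX2 KO and 0 to 33 for Dex in WT, both highest without culture 4. Without the replicate block, Dex called 10 genes in SOX2 KO and 0 in WT; dropping it changed no call for the 6 genes.

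Sign changes occurred only in differences that did not pass. Aqp4 turned to -0.13 in vehicle with array weights, to 0.0433 in Dex and 0.20 over culture means with array cluster as a covariate, to 0.0496 over culture means with the Eif2s3y covariate, and to 0.22 in Dex, 0.29 over culture means and 0.0267 for Dex in SOX2 KO without cultures 4 and 12. Slc12a2 turned to 0.0336 in Dex with array cluster. The Dex effect in WT of Kcnj10 was -0.0158 with median centring. The Dex difference between genotypes of Kcnj16 was -0.0293 with array weights and -0.14 without cultures 4 and 12, which also turned Atp1b2 minus Slc12a2 to 0.14. Over the fits without 1 culture, Aqp4 ranged from -0.42 to 0.32 in vehicle (0.315 without culture 12), -0.66 to 0.26 in Dex, -0.54 to 0.29 over culture means and -0.31 to 0.0267 for Dex in SOX2 KO. For Dex in WT, Kcnj10 ranged from -0.058 to 0.064 and Atp1b2 from -0.018 to 0.11. For the Dex difference between genotypes, Kcnj10 ranged from -0.0017 to 0.26, Kcnj16 from -0.04 to 0.16 and Atp1b2 from -0.04 to 0.13. Among pairs, Atp1b2 minus Slc12a2 ranged from -0.19 to 0.22, Atp1b2 minus Aqp4 from -0.60 to 0.0886 and Slc12a2 minus Aqp4 from -0.49 to 0.24.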
